A study of Mus musculus with 5 samples.

Results

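The data compared 1 cold-stored mammary tumour library with 2 fresh ones, inside each of 3 kinds of cell told apart by the genes they express. Cells were assigned by their UMIs (unique molecular identifiers, each counting 1 captured RNA molecule) per 10000 UMIs of the cell. Epithelial cells had a sum of Krt8, Krt18 and Epcam, the simple-epithelium keratins and an epithelial adhesion protein, of at least 15. Fibroblast cells had a sum of the collagen genes Col1a1, Col1a2 and Col3a1 of at least 30 with a keratin sum below 8. Myeloid cells had at least 10 raw UMIs of the complement genes C1qa, C1qb and C1qc, which tumour macrophages express, with a keratin sum below 8. These rules placed 6752 of the 8000 cells of the 3 libraries: 5797 epithelial, 735 fibroblast and 220 myeloid.

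The series compared single-cell RNA-seq platforms on dissociated tumours of the PyMT mouse, a model in which the polyoma middle T oncogene drives mammary tumours; the labels give neither the promoter, the strain, the age nor the number of animals. All 3 libraries used here were made with 10x Genomics 3′ chemistry from digested tumours enriched for viable cells. The fresh group has 2 libraries, replicates 1 and 2, with 4000 cells together. The stored group has 1 library of 4000 cells labelled 24 h, from digested tumours left at 4 °C overnight, with a loss of viability of at least 20% checked by flow cytometry.

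Cold storage slows transcription and metabolism in dissociated cells, and cells that lose viability leak RNA. Responses known from dissociated tissue include the immediate early genes, heat shock genes, metallothioneins, which bind zinc and copper, and the targets of NF-kB, the transcription factor that switches on inflammatory cytokines. In mammary tumours the luminal epithelium carries keratins and milk genes, the fibroblasts make collagens and other matrix proteins, and the macrophages express complement and antigen-presenting genes.

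Each compartment was summed within each library, so a gene has 3 values per compartment: 2 fresh and 1 stored. With 1 stored library the spread in every test comes from the fresh pair alone, the labels do not say whether that pair came from separate animals, and the tumour, the library and storage cannot be told apart. A lower value for a cell type's gene in a sum can come from fewer such cells or from less RNA per cell, which these sums do not separate. Median UMIs per cell were close across the 3 libraries, 11141 to 12892.5 in epithelial, 11098 to 12393 in fibroblast and 5592 to 6553 in myeloid cells. The smallest deposited cell held 103 and 102 UMIs in the fresh libraries and 1029 in the stored one. Epithelial cells with over 20% mitochondrial UMIs were 2.79% and 5.66% in the fresh libraries and 10.6% in the stored one. The markers not used by the rules followed the compartments: 12 epithelial markers summed to 287 to 349 UMIs per 10000 in epithelial cells, 7 fibroblast markers to 120 to 175 in fibroblast cells and 7 macrophage markers to 111 to 126 in myeloid cells. Libraries shared 1 to 5 cell barcodes per pair.

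The compartments held similar shares of the cells. Epithelial cells were 67.3% and 74.3% of the fresh libraries and 74.3% of the stored library. Fibroblast cells were 12.2% and 8.83% fresh against 7.78% stored (exact 95% binomial interval 6.96% to 8.65%), below both fresh libraries but only 2.76 percentage points under their mean, with a fresh SD of 2.41. Myeloid cells were 2.12% and 3.58% fresh and 2.68% stored, between the fresh pair. Intervals cover counting error only, and with 2 libraries against 1 no exact test can pass.

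Storage was accompanied by differences in all 3 compartments, most of them upward in epithelial and myeloid cells and in both directions in fibroblasts. In epithelial cells 210 of 14111 genes tested passed (1.49%), 165 higher (1.17%) and 45 lower (0.319%) in the stored library. In fibroblasts 1294 of 11283 passed (11.5%), 687 higher (6.09%) and 607 lower (5.38%). In myeloid cells 165 of 6158 passed (2.68%), 116 higher (1.88%) and 49 lower (0.796%). A pass means a Benjamini-Hochberg adjusted p under 0.05 in edgeR's quasi-likelihood test over all genes of that compartment; "rose" and "fell" are used only for such genes. The myeloid calls are fragile: that fit treated the spread of all genes as equal. Leaving out the 4 myeloid cells that also passed the collagen rule, 1 fresh and 3 stored, left 0 genes at adjusted p under 0.05. At an unadjusted p under 0.05 there were 370 against 600 before, and 143 of 145 calls still tested kept their sign. The fit without these cells no longer took the spread as equal. How far the loss of calls comes from the cells or from that change was not tested. Values below are UMIs per 10000 in the order fresh 1, fresh 2, stored, and changes are log2 fold changes ± SE.

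Changes shared by compartments were mostly increases. Counting genes that passed in the same direction in at least 2 compartments, without the 9 genes of the rules, 127 rose and 17 fell; 37 rose and 3 fell in all 3. The compartments come from the same 3 libraries, so a library-wide shift appears in each. Of the epithelial increases 55.2% were also fibroblast increases, which is 13.2% of the fibroblast list, and 29.7% were also myeloid increases, 42.2% of the myeloid list. Genes called in opposite directions were few, 1 higher in epithelial and lower in fibroblast cells, 1 the reverse, 3 higher in fibroblast and lower in myeloid cells and 5 the reverse.

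Ribosomal protein genes with very short messages led the shared increases. Rps28, a protein of the small ribosomal subunit (chromosome 17, 33819027 to 33824562, minus strand, GENCODE M21 on GRCm38), stood at 6.47, 8.32 and 38 in epithelial cells, 4.08, 5.65 and 27.2 in fibroblasts and 6.08, 8.47 and 33 in myeloid cells. The stored value lay far above both fresh libraries in every compartment, and Rps28 rose by 2.37 ± 0.18 (adjusted p = 0.0034), 2.53 ± 0.17 (1.25e-07) and 2.20 ± 0.21 (9.29e-23). Rps29 of the same subunit (chromosome 12, 69157722 to 69159186, minus strand) read 13.7, 13 and 42.9 in epithelial cells, 11.2, 12.1 and 41.5 in fibroblasts and 26.3, 23.8 and 73.3 in myeloid cells. Rpl38 of the large subunit read 16.6, 16.6 and 39 in epithelial cells, 6.06, 6.86 and 25.7 in fibroblasts and 7.77, 8.65 and 25.1 in myeloid cells, again with the stored value highest. Rpl37, Rpl37a, Rpl39, Rpl41, Rps21 and Rps27 rose in all 3 as well, with Rpl41 at 1.21, 1.03 and 1.04. Most of the family did not pass. Of the cytosolic ribosomal protein genes 9 of 81 rose and 0 fell in epithelial cells. In fibroblasts 19 rose and 2 fell of 81, and in myeloid cells 10 rose and 3 fell of 80. Over all genes 1.17%, 6.09% and 1.88% rose and 0.319%, 5.38% and 0.796% fell. The family medians were -0.05, 0.12 and -0.15 beside -0.00, 0.00 and -0.02 over all genes. Summed, the family read 2028, 2008 and 2133 in epithelial cells, 1226, 1309 and 1505 in fibroblasts and 1587, 1531 and 1554 in myeloid cells. Rpl9 fell in fibroblasts, 21.8, 21.8 and 15.4, and in myeloid cells, 24.9, 23.7 and 14.5, and Rpl13 fell in myeloid cells, 50.7, 49.1 and 32.2. Ribosomal protein genes have many near-identical processed copies, so how the authors' counting assigned their reads is uncertain.

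Several mitochondrial and respiratory genes, most of them with short annotated transcripts, moved with them. The mitochondrially encoded mt-Atp8, a subunit of ATP synthase, read 1.19, 0.663 and 3.22 in epithelial cells, 0.495, 0.282 and 1.57 in fibroblasts and 0.777, 0.47 and 2.15 in myeloid cells and rose by 1.80, 2.02 and 1.86. mt-Nd3, a complex I subunit, rose by 1.55, 1.67 and 1.14. The nuclear Atp5k, another ATP synthase subunit, read 1.28, 1.24 and 3.95 in epithelial cells and rose by 1.66, 1.62 and 1.47, and the complex I gene Ndufa3 by 1.61, 1.53 and 1.47. Of the nuclear respiratory chain genes 5 of 74 rose and 1 fell in epithelial cells. In fibroblasts 10 rose and 2 fell of 74, and in myeloid cells 2 of 73 rose. Over all genes 1.17%, 6.09% and 1.88% rose. The medians of the chain were 0.05, -0.01 and 0.02, so the increase belonged to a minority of it. Pet100, a cytochrome oxidase assembly factor with a longer transcript of 1193 bases, rose by 1.56, 1.55 and 1.36.

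**Figure D1:**
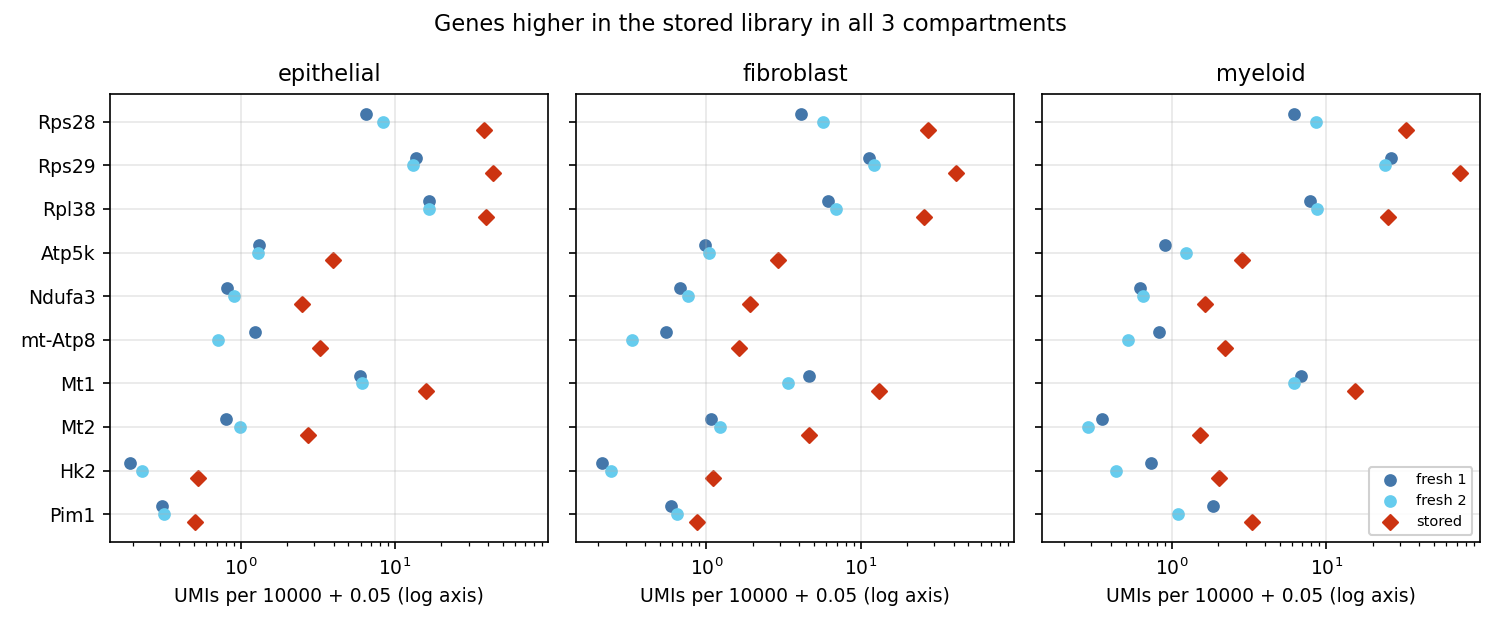
UMIs per 10000 plus 0.05 on a log axis for 10 genes that rose in all 3 compartments, 1 panel per compartment, with circles for the fresh libraries and a diamond for the stored library. In every row the diamond lies to the right of both circles, for Rps28 at 38.0, 27.2 and 33.0 against fresh values of 4.08 to 8.47.

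Genes with the shortest transcripts had positive median changes in each compartment. Lengths were those of the longest principal transcript of the gene in GENCODE M21, or of its longest transcript where none is marked principal, found for 99.0% to 99.4% of the genes tested. Genes under 600 bases had a median change of 0.27 in epithelial cells (311 genes), 0.36 in fibroblasts (145) and 0.31 in myeloid cells (110), and 10.3%, 29.7% and 18.2% of them rose. Genes from 600 up to 1000 bases had medians of -0.14, -0.24 and -0.18, and genes of 4000 bases or more 0.00, 0.06 and 0.06. Between the fresh libraries the medians of the shortest group were 0.03, 0.07 and 0.04. Within the ribosomal protein genes, the 10 under 500 bases had medians of 1.07, 1.20 and 0.87, and those of 500 bases or more -0.11, 0.07 and -0.20. Across all genes with a length (13963, 11181 and 6109) the Spearman rank correlation of length and change was weak and positive, at 0.06, 0.12 and 0.10, beside 0.09, 0.04 and 0.01 between the fresh libraries; genes share libraries and are not replicates. The relation was not monotonic, and 28 of the 126 shared increases with a known length, 15 of the 37 in all 3 compartments, came from genes under 600 bases. What joins length and change was not tested.

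**Figure D2:**
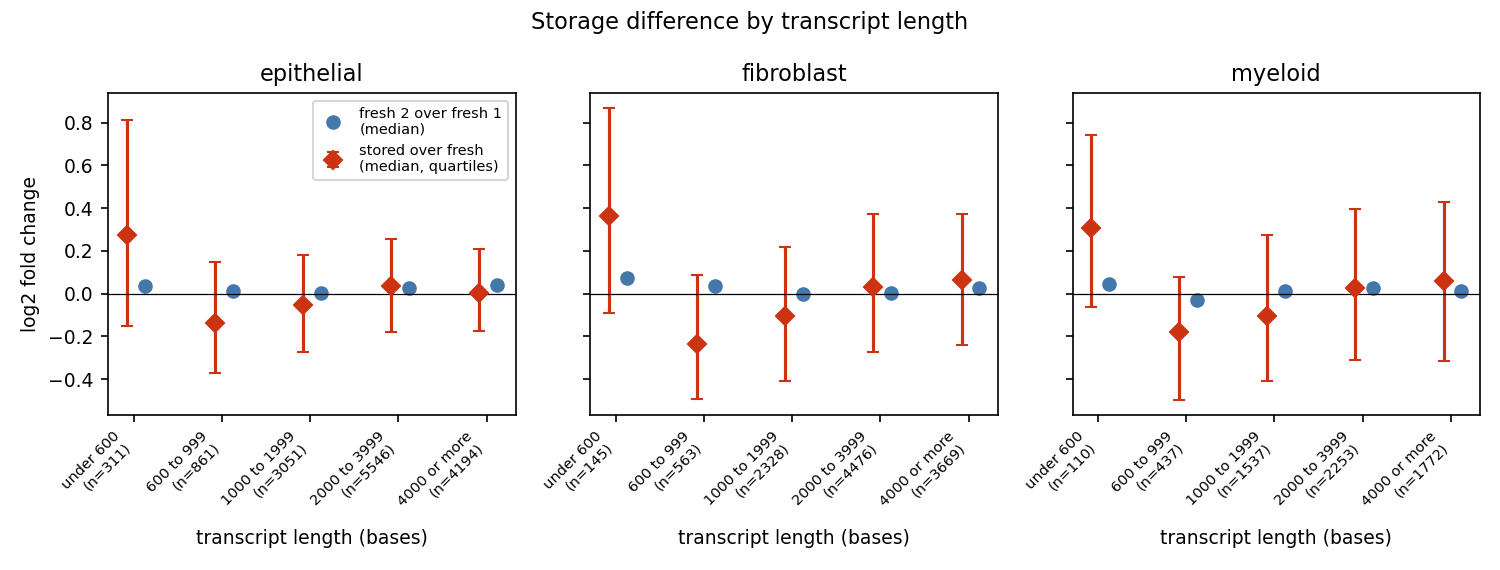
Median log2 fold change of stored over fresh sums (diamonds, whiskers the quartiles) and median of fresh 2 over fresh 1 (circles) for 5 groups of transcript length in each compartment. The shortest group is highest in all 3 panels, at 0.27, 0.36 and 0.31, and the group from 600 up to 1000 bases lowest, at -0.14, -0.24 and -0.18.

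Metallothioneins rose in every compartment. Mt1 (chromosome 8, 94179082 to 94180327, plus strand) and its neighbour Mt2 (94172664 to 94173568, plus strand) encode small metal-binding proteins, and their messages are 549 and 511 bases long, so they too fall in the shortest group. Mt1 stood at 5.87, 6.04 and 15.8 in epithelial cells, 4.55, 3.33 and 13.1 in fibroblasts and 6.76, 6.11 and 15.3 in myeloid cells. It rose by 1.42 ± 0.14 (adjusted p = 0.00698), 1.77 ± 0.18 (4.02e-06) and 1.28 ± 0.24 (7.49e-06), with the stored value above both fresh values each time. Mt2 stood at 0.759, 0.947 and 2.7 in epithelial cells, 1.02, 1.17 and 4.61 in fibroblasts and 0.304, 0.235 and 1.48 in myeloid cells and rose by 1.68, 2.11 and 2.50. Slc30a1, the zinc exporter on the same list, stood at 0.0649, 0.0943 and 0.0729 in epithelial cells and 0.0671, 0.0799 and 0.108 in fibroblasts and did not pass. Inside the fibroblasts marked by Efemp1 and Clec3b, a class defined further on, the changes were 0.61 and 0.76 (adjusted p = 0.405 and 0.144), and inside those marked by Cilp and Thbs4 they were 1.59 and 2.00 (0.00095 and 2.19e-05).

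Both promoters are shown because metal-responsive transcription works through short elements in them. The sequences are RefSeq windows of 300 bases on GRCm38.p6, from 250 bases before to 50 after the start, 5′ to 3′ on the plus strand, in which capitals mark the metal response element cores TGCACNC and TGCGCNC on either strand. Mt1 is chr8:94178839-94179138 and Mt2 is chr8:94172368-94172667.
Mt1: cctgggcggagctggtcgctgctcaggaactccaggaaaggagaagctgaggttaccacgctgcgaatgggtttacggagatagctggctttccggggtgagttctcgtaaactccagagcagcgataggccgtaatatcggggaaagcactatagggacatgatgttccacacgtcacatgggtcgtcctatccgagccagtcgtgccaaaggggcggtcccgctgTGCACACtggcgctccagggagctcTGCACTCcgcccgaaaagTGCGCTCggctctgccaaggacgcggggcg
Mt2: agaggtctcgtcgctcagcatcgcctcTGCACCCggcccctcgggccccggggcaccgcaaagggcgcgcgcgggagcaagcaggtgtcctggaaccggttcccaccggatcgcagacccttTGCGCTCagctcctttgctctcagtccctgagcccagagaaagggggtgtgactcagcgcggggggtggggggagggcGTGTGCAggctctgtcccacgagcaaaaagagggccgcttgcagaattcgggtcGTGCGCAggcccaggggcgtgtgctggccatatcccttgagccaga
The Mt1 window holds 3 matches and the Mt2 window 4. Of 32851 windows of this length 25.7% hold at least 1 match and 1.97% at least 3. A match is a description of the letters, not a measured site.

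Other shared increases were of longer genes. Hk2 encodes a hexokinase, the enzyme of the first step of glycolysis (chromosome 6, 82725025 to 82774454, minus strand, transcript 5513 bases). Hk2 stood at 0.142, 0.181 and 0.479 in epithelial cells, 0.163, 0.193 and 1.05 in fibroblasts and 0.676, 0.384 and 1.98 in myeloid cells. It rose by 1.58 ± 0.14 (adjusted p = 0.00551), 2.61 ± 0.20 (2.66e-07) and 1.98 ± 0.34 (8.16e-07), and also inside both kinds of fibroblast, by 2.52 and 2.14. It was alone among the glycolysis genes in epithelial and myeloid cells, where 1 of 18 and 1 of 15 rose; in fibroblasts Hk2 and Pfkp rose and Pkm and Slc16a3 fell. The kinase gene Pim1 rose by 0.80, 0.57 and 1.26, and the clock gene Per1 rose in all 3. Sqstm1, an autophagy receptor induced by oxidative stress, rose in epithelial and myeloid cells, by 0.91 and 1.10, and was 0.982, 0.738 and 1.06 in fibroblasts, with an adjusted p of 0.3.

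The genes that fell in all 3 compartments were AC160336.1, AY036118 and Gng11. AC160336.1, a long noncoding RNA gene on chromosome 14 (44544055 to 44637201, minus strand), read 0.488, 1.14 and 0.0349 in epithelial cells, 0.519, 0.907 and 0.0785 in fibroblasts and 0.372, 1.26 and 0.107 in myeloid cells and fell by 4.52, 3.12 and 2.96 on the log2 scale. AY036118 read 1.08, 0.859 and 0.314 in epithelial cells, 1.23, 0.94 and 0.41 in fibroblasts and 2.7, 1.67 and 0.137 in myeloid cells. It lies at chromosome 17, 39847113 to 39848035, on the minus strand, inside Gm42418 on the plus strand (39846958 to 39848788), and Gm42418 moved the other way, up by 0.94, 0.86 and 0.67. No source here states whether the authors' counting separated the strands, so reads of the pair may not be told apart. Gng11, a G protein subunit, fell by 0.69, 1.5 and 2.72, and its myeloid values of 0.0676, 1.45 and 0.122 rest on the second fresh library, and 47% of 1 library's UMIs for it came from 1 cell.

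In each compartment the median change of the inflammatory genes under NF-kB was positive, while the median over all genes was near 0. Of the listed NF-kB and cytokine genes 10 of 21 rose and 0 fell in myeloid cells (median 0.92), 5 of 21 rose and 0 fell in epithelial cells (0.67), and 6 rose and 2 fell of 20 in fibroblasts (0.56). Stored values lay above both fresh libraries for 18 of 21 listed genes in myeloid cells, beside 32.2% of all genes tested, for 15 of 21 in epithelial cells, beside 37.5%, and for 14 of 20 in fibroblasts, beside 36.8%. Tnfaip2, which TNF induces, read 0.0214, 0.0295 and 0.0945 in epithelial cells, 0.3, 0.324 and 0.869 in fibroblasts and 0.338, 0.448 and 2.04 in myeloid cells and rose by 1.90 ± 0.25, 1.52 ± 0.18 and 2.36 ± 0.35 (adjusted p = 0.0167, 2.94e-05 and 2.6e-09). Birc3, an inhibitor of apoptosis, also rose in all 3, by 1.31, 0.85 and 1.54. No other listed gene did. By DESeq2 5 of these list members rose in epithelial cells, 1 in fibroblasts and 0 in myeloid cells, where 15 had an unadjusted edgeR p under 0.05. Without cells passing 2 rules 2 of 21 rose in epithelial cells, and 5 rose and 2 fell of 19 in fibroblasts. In myeloid cells 0 of 21 passed, in a fit where 0 of 5858 genes of any kind did. The list medians were then 0.86, 0.54 and 0.97 in epithelial, fibroblast and myeloid cells.

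In myeloid cells the cytokines themselves were among the increases. Tnf read 2.2, 2.97 and 5.47, the interleukin Il1b 19.1, 6.98 and 23 and the neutrophil chemokine Cxcl2 16.8, 15.6 and 32. The chemokine Ccl4 read 21.1, 14 and 33, Nfkbia, the inhibitor that NF-kB induces, 9.13, 5.08 and 13.2 and Ptgs2, the inducible cyclooxygenase, 0.406, 0.213 and 1.31. In Il1b the fresh pair lay further apart than fresh 1 lay from the stored library. Their changes ran from 0.85 (Il1b) to 2.18 (Ptgs2). Il1rn, the interleukin 1 receptor antagonist, read 0.237, 0.0213 and 1.28 and rose by 3.56 ± 0.48. With the 4 cells that passed both rules left out, the changes of Tnfaip2, Tnf and Ptgs2 were 2.54, 1.13 and 2.24, each with an adjusted p of 0.709.

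In epithelial cells Tnf, Tnfaip3, Ccl7, Birc3 and Tnfaip2 rose. Tnf read 0.243, 0.219 and 0.403 and Tnfaip3, the A20 feedback inhibitor, 0.171, 0.127 and 0.315. Csf3, the granulocyte growth factor G-CSF, was outside the list and read 0.0959, 0.057 and 0.434, a rise of 2.51 ± 0.26 (adjusted p = 0.00752). The chemokines Cxcl1 and Cxcl2 did not pass there, at 2.1, 0.871 and 3.35 and 1.18, 0.466 and 1.74, where the fresh libraries differed more than 2-fold. With the epithelial cells that also passed the collagen or C1q rule left out, 2 of 21 rose, and Tnf, Tnfaip3 and Birc3 had adjusted p of 0.0661, 0.069 and 0.0504 with changes of 0.86, 1.13 and 1.32.

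Fibroblasts gave a mixed pattern. Nfkbiz, Cxcl1, Cxcl2, Ccl4, Birc3 and Tnfaip2 rose, while Cxcl10, an interferon-induced chemokine, and Ccl2, the monocyte chemokine, fell. Ccl2 read 3.46, 3.32 and 1.88 and fell by 0.82; Cxcl10 read 0.802, 0.418 and 0.253. Cxcl2 read 0.0353, 0.0517 and 0.375, but 60% of its UMIs in a library came from 1 cell, and without cells that also passed the myeloid rule its change was 1.69 in place of 3.17. The difference in storage change between compartments passed for 1 of these genes, Ccl7, which rose in epithelial cells and stood at 1.21, 1.37 and 1.45 in fibroblasts.

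**Figure D3:**
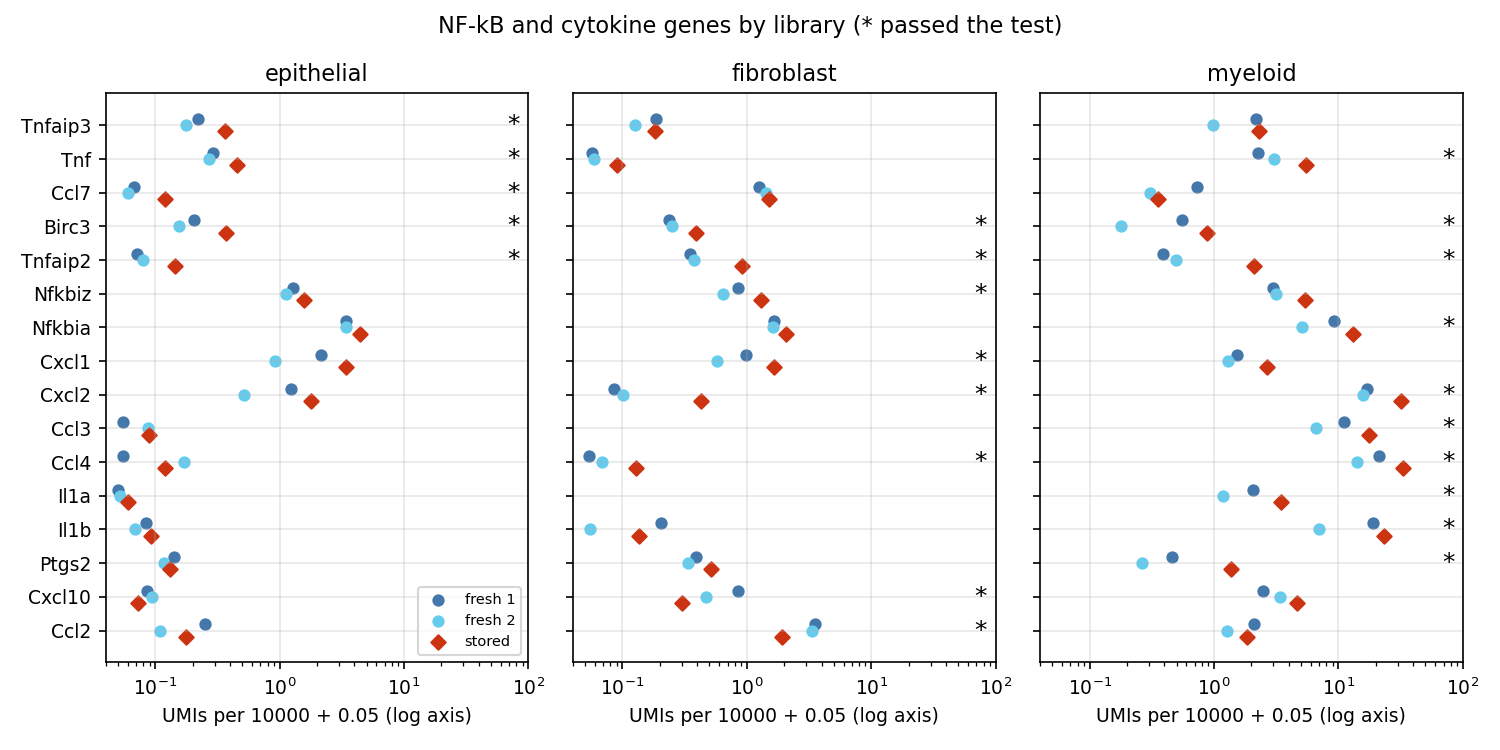
UMIs per 10000 plus 0.05 on a log axis for the 16 listed NF-kB and cytokine genes that passed in at least 1 compartment, in each library and compartment, with an asterisk where the gene passed the test in that compartment. Asterisks mark 5 rows in epithelial cells, 8 in fibroblasts, where Cxcl10 and Ccl2 are the lower ones, and 10 in myeloid cells, where Cxcl2 and Ccl4 exceed 30 in the stored library.

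Promoters of members that rose are shown for the NF-kB consensus, searched on both strands by its standard 10-letter form. Of the 32851 windows 8.46% hold at least 1 match. Among the 9 members looked up that rose in myeloid cells and had a window, Nfkbia, Cxcl2 and Tnfaip2 hold one, and Birc3, Tnf, Il1b, Il1a, Ccl3 and Ptgs2 hold none in these 300 bases. The windows of Nfkbia (chr12:55492598-55492897, minus strand) and Cxcl2 (chr5:90903649-90903948, plus strand) follow, with matches in capitals.
Nfkbia: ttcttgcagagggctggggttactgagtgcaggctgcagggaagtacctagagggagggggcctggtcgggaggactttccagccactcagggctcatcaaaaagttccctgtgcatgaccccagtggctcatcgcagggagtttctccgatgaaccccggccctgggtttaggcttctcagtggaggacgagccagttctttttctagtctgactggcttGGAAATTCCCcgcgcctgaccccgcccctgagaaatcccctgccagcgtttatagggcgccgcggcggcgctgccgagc
Cxcl2: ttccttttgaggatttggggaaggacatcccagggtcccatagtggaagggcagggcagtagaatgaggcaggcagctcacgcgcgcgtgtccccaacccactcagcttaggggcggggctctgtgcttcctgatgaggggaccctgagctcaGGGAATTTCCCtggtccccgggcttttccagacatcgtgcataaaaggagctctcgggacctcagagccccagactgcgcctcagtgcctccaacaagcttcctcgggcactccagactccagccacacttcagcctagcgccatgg
The 2 matches in Cxcl2 overlap, 1 on each strand.

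Most interferon-stimulated genes stood lower in stored epithelial cells, though few passed. Of 22 listed genes 20 lay below both fresh libraries, beside 38% of all genes tested, and the median was -0.63, but 2 passed, both lower. The size of that median rests on the second fresh library: it was -0.24 without it and -0.64 without the first. Ifit3, an antiviral protein, read 0.07, 0.106 and 0.0259 and fell by 1.75 (adjusted p = 0.0363). Bst2, tetherin, read 0.83, 0.961 and 0.45 and fell by 0.98 (0.0176). Isg15, a ubiquitin-like modifier, stood at 0.815, 1.3 and 0.548 with an adjusted p of 0.113. In fibroblasts Isg15 and Ifit1 fell and Stat2 and Ifi27l2a rose, with a median of -0.04 over 20 genes, and Isg15 read 1.51, 0.996 and 0.398. In myeloid cells 0 of 15 passed by edgeR or DESeq2, and 2 had an unadjusted edgeR p under 0.05. Ifi27l2a was the listed gene whose change differed between compartments: it read 0.647, 1.33 and 3.05 in fibroblasts and 0.32, 0.618 and 0.298 in epithelial cells.

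Heat shock genes gave few calls, mostly decreases. In epithelial cells 18 of 20 lay below both fresh libraries, beside 38% of all genes tested (list median -0.27). By edgeR and by DESeq2 0 of the 20 passed, with 8 at an unadjusted edgeR p under 0.05. The inducible chaperone Hspa1a read 3.05, 5.72 and 1.54 in epithelial, 3.12, 2.62 and 1.62 in fibroblast and 4.97, 18 and 5.53 in myeloid cells. It fell in fibroblasts by 0.79 and in myeloid cells by 1.04, where the first fresh library stood below the stored one. Cryab fell in fibroblasts and Hspb1 in myeloid cells, and Hspb8 rose in fibroblasts. Among 8 cold response genes 0 passed by edgeR or DESeq2 in epithelial cells (1 at an unadjusted p under 0.05) and 0 in myeloid cells (0). In fibroblasts 1 of the 8, Carhsp1, rose and 1 fell by edgeR, beside 6.09% and 5.38% of all genes tested. By DESeq2 0 passed there, with 3 at an unadjusted edgeR p under 0.05. Rbm3, the RNA-binding protein known from cold exposure, was the one that fell, at 6.25, 6.84 and 3.89, and Cirbp, its relative, stood at 0.463, 0.479 and 0.459 there and 0.713, 0.632 and 0.786 in epithelial cells. Of the unfolded protein response genes Pdia4, Pdia6 and Manf, 3 of 20, fell in fibroblasts, where 5.38% of all genes tested fell. In epithelial cells 0 of 20 passed by edgeR and 2 by DESeq2, with 8 at an unadjusted edgeR p under 0.05.

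The make-up of the fibroblast compartment differed between the fresh and stored libraries. Cells were classed by at least 3 UMIs of Efemp1 and Clec3b or of Cilp and Thbs4, whichever was higher, after setting aside cells with at least 3 UMIs of the mural genes Rgs5, Notch3 and Cspg4. The Efemp1 and Clec3b class was 11.8% and 21.2% of the fresh fibroblasts (30 of 254 and 36 of 170) and 61.4% of the stored (191 of 311). The Cilp and Thbs4 class was 49.2% and 41.8% fresh and 24.8% stored, and cells with mural genes 22.8%, 21.2% and 7.72%. For each class the exact 95% binomial intervals of the stored library did not overlap those of either fresh library. These intervals cover the counting error of cells within a library and hold no spread between libraries. Their separation is therefore no test of storage. These classes are defined by the genes named, so those genes are no separate result.

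**Figure D4:**
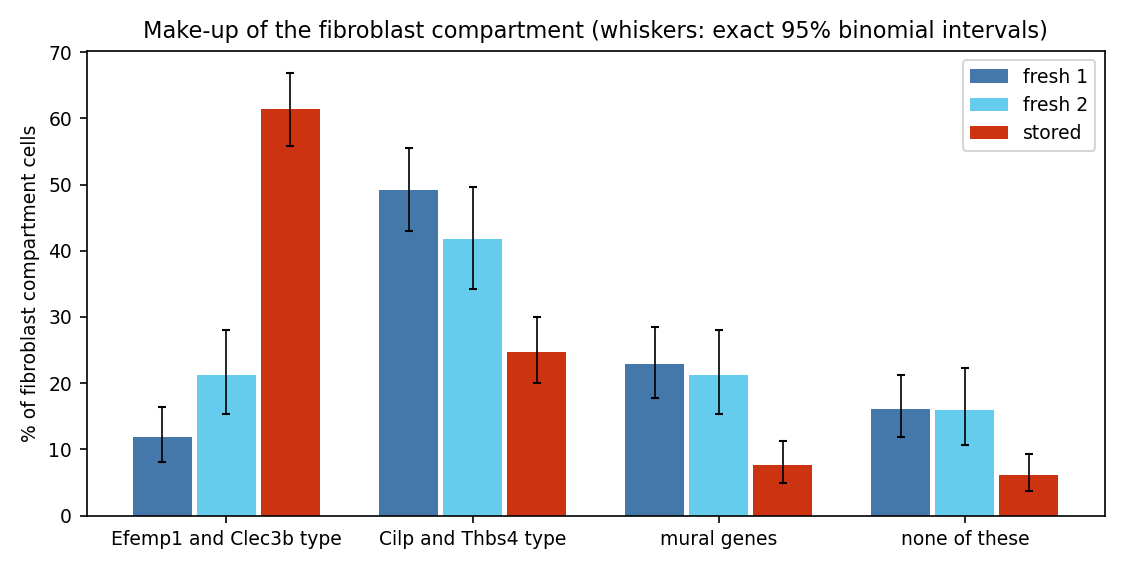
Share of fibroblast compartment cells in 4 classes for each library, bars from 0 with exact 95% binomial intervals. The Efemp1 and Clec3b class is 61.4% of the stored library against 11.8% and 21.2% of the fresh ones.

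Further markers of these classes, other than the genes that define them, gave calls too. All 8 of the other markers of the Efemp1 and Clec3b class rose. Of the 8 other markers of the Cilp and Thbs4 class 4 fell (Cthrc1, Lrrc15, Col11a1 and Tnc). All 5 of the other mural markers fell, among them Acta2, smooth muscle actin, at 9.33, 11.5 and 2.25, and Tagln, transgelin, at 11.4, 12.5 and 2.2. Over all genes tested in fibroblasts 6.09% rose and 5.38% fell. The marker lists were chosen with earlier results of these data known, so these counts are no separate support for the class shares. Of the 1294 fibroblast calls 1017 could be tested inside the Efemp1 and Clec3b class, where 924 kept their sign and 103 their call; inside the Cilp and Thbs4 class 1147 could be tested, 1103 kept their sign and 354 their call. Leaving out only the cells with mural genes kept 1079 calls. These fits hold fewer cells and fewer UMIs. Classes and changes come from the same cells, and how far one sets the other was not tested.

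Genes of the actin cytoskeleton fell in fibroblasts. Of 18 listed genes 8 fell and 1, Zyx, rose, with a median of -0.42. In epithelial cells 0 of 18 fell and in myeloid cells 1 of 14. Over all genes tested 5.38% fell in fibroblasts, 0.319% in epithelial and 0.796% in myeloid cells, so these counts do not compare the compartments on equal terms. The tropomyosin Tpm1 read 3.87, 5.14 and 1.98 and fell by 1.15, and Tpm2 read 3.94, 4.84 and 0.826. Tmsb4x, the actin-sequestering thymosin, read 90.5, 90.7 and 44.3 in fibroblasts and 287, 277 and 194 in myeloid cells, where it fell too. Tpm1 changed by -0.72 (adjusted p = 0.0197) inside the Cilp and Thbs4 class and by -0.29 (0.839) inside the Efemp1 and Clec3b class. Its storage change differed between epithelial and fibroblast sums, as did that of Cnn2, a calponin.

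Matrix genes of fibroblasts moved both ways: 4 of 33 rose, Fn1, Dcn, Fbn1 and Loxl1, and 8 fell. Over all genes tested there 6.09% rose and 5.38% fell. Fibronectin, Fn1, read 22.1, 28 and 46.3 and the proteoglycan decorin, Dcn, 41.4, 49.7 and 85.8. Col12a1, a fibril-associated collagen, read 15.9, 16.3 and 4.07 and fell by 1.95. Timp1, the metalloproteinase inhibitor, read 19, 17 and 9.01 and Thbs1, thrombospondin, 3.29, 4.89 and 1.33. The collagenase Mmp13 read 1.07, 1.3 and 0.102 and fell by 3.49, and inside the Cilp and Thbs4 class it fell by 1.90. Igfbp3 and Igfbp2, which bind insulin-like growth factors, read 3.48, 3.04 and 0.613 and 8.48, 7.84 and 1.74.

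Among the fibroblast increases named by the rule, Gstm1, a glutathione transferase, read 0.53, 0.531 and 3.79, and rose inside both classes, by 1.59 and 2.78. Scg3, a secretory granule protein, read 0.00707, 0.0376 and 0.77. Inmt, a methyltransferase, and Myoc, myocilin, had 0 UMIs in both fresh libraries and 104 and 78 in the stored library, at least 49.97-fold and at least 37.5-fold higher, taking 3 UMIs over both fresh libraries as the floor. Cd74 and H2-Aa of MHC class II rose at 0.208, 0.094 and 1.54 and 0.0318, 0.0282 and 0.349, and without the 4 fibroblast cells that also passed the myeloid rule, 1 fresh and 3 stored, their changes were 0.47 and 1.12 with adjusted p of 0.496 and 0.248.

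More immediate early genes passed in fibroblasts than in the other compartments, but more genes of any kind passed there. Over all genes tested 11.5% passed in fibroblasts, 1.49% in epithelial and 2.68% in myeloid cells. Egr1, Atf3, Dusp1, Zfp36, Nr4a1 and Klf4 rose and Ier5 and Cyr61 fell of 24 tested (median 0.30), while 0 of 25 passed in epithelial cells by edgeR or DESeq2 (5 at an unadjusted edgeR p under 0.05) and 2 rose and 1 fell of 24 in myeloid cells. Atf3, a stress-induced transcription factor, read 0.601, 0.545 and 1.26 in fibroblasts and 7.23, 8.47 and 7.7 in epithelial cells. Klf4 read 2.17, 1.85 and 4.23 and 0.994, 1.25 and 0.736. Atf3 rose inside both fibroblast classes, by 1.84 and 1.30, and Klf4 passed in neither. The difference between compartments did not pass for any listed immediate early gene. In myeloid cells Egr1, at 4.26, 6.04 and 10.2, and Nr4a1 rose and Klf2 fell.

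Some genes of other fibroblast pathways fell by edgeR, and by DESeq2 0 of the cholesterol synthesis, proteasome and p53 target genes named here did (5, 12 and 5 list members had an unadjusted edgeR p under 0.05). Of the cholesterol synthesis genes 4 of 21 fell (Fdps, Cyp51, Sc5d and Ebp, median -0.42), and Fdps read 0.53, 0.32 and 0.145. Inside the Efemp1 and Clec3b class the median of the 11 genes tested was 0.37, with no call. Of 37 proteasome genes 34 lay below both fresh libraries, beside 41.1% of all genes, and 5 fell (Psma2, Psma3, Psma5, Psmb2 and Psmb7, median -0.26). In epithelial cells 31 of 37 lay below both, beside 38% of all genes, and in myeloid cells 23 of 37, beside 35%. The list stood at medians of -0.15 in epithelial and -0.31 in myeloid cells, with 0 calls by edgeR and by DESeq2 and 8 and 2 genes at an unadjusted edgeR p under 0.05. Of the 18 p53 targets 3, Bax, Pmaip1 and Plk2, fell in fibroblasts. Over all genes tested in fibroblasts 5.38% fell, which is the share to set beside the counts of these 3 lists.

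Genes of one compartment were also found higher in another. In epithelial cells 16 of 33 matrix genes rose and none fell, beside 1.17% and 0.319% of all genes tested. Dcn read 0.0959, 0.0531 and 0.582, Fn1 0.0595, 0.0636 and 0.402 and the proteoglycan Lum 0.0457, 0.0419 and 0.193, far under their fibroblast levels. Summed fibroblast markers in epithelial cells were 0.280, 0.191 and 1.32 UMIs per 10000. Without the 6, 19 and 50 epithelial cells that also passed the collagen or C1q rule 3 of 33 rose, beside 87 of 14111 genes. The changes were then 1.33 for Dcn (edgeR adjusted p = 0.0747) and 1.66 for Fn1 (0.0137). In myeloid cells 9 of 31 matrix genes rose, beside 1.88% of all genes tested, and summed fibroblast markers were 0.338, 2.48 and 9.24. Without the 4 double cells 9 matrix genes could be tested and 0 passed by edgeR. In that fit 0 of 5858 genes of any kind passed, so the result tells nothing particular to matrix genes. With all cells 0 of the 31 passed by DESeq2, where 5 of 6158 genes did.

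Some milk genes rose outside the epithelial cells. In fibroblasts 7 of 12 milk and secretory genes rose and 1 fell, beside 6.09% and 5.38% of all genes tested. The casein Csn2 read 0.223, 0.211 and 0.608 there and alpha-lactalbumin, Lalba, 0.145, 0.207 and 0.674. In myeloid cells 3 of 8 rose, beside 1.88% of all genes tested. Csn2 read 0.203, 0.235 and 0.883 there and Lalba 0.203, 0.278 and 0.898. In epithelial cells, which make them, 0 of 15 passed by edgeR and by DESeq2, with 4 at an unadjusted edgeR p under 0.05, and Csn2 read 12.3, 11.6 and 13.3. Summed epithelial markers, 12 genes, were 4.11, 5.22 and 12.4 in fibroblasts and 9.13, 13.2 and 19.5 in myeloid cells, and 10 of 12 rose in fibroblasts. The part that epithelial RNA or cells have in these sums was not tested. Immunoglobulin genes followed: Igkc and Igha had 4 and 0 UMIs in fresh epithelial cells and 527 and 429 in stored, ratios of 140 (95% counting interval 54.4 to 517) and at least 152-fold higher, and both rose in fibroblasts from 0 UMIs, at least 23.1-fold and at least 17.8-fold higher.

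Among the epithelial decreases named by the rule, Sumo2, a protein modifier, read 10.4, 11.1 and 5.23 and fell by 1.03, and the histone gene Hist1h2bc read 2.17, 2.29 and 1.05 and also fell in fibroblasts. Car6, a secreted carbonic anhydrase, read 3.56, 5.06 and 1.86. C2cd4b read 0.57, 0.897 and 0.226 and 2310057J18Rik 7.26, 5.6 and 2.4. The splicing factor gene Srsf9 and the RNA-binding Hnrnpa0 fell in epithelial and fibroblast cells, Hnrnpa0 by 0.79 and 0.73, and Smad7, the inhibitor of TGF-beta signalling, in epithelial and myeloid cells, by 0.71 and 1.27.

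Some macrophage genes passed in myeloid cells, in both directions. Of the resident macrophage list 1 of 8 rose (F13a1) and 1 fell (Ccl8). Of the lipid-handling macrophage list 2 of 10 rose (Gpnmb and Spp1) and 1 fell (Apoe). Over all genes tested in myeloid cells 1.88% rose and 0.796% fell. By DESeq2 0 genes of either list passed, with 4 and 3 at an unadjusted edgeR p under 0.05. Spp1, osteopontin, read 6.96, 9.18 and 20.3 and rose by 1.36 ± 0.22, while it fell in fibroblasts, 13.4, 17.2 and 4.69. Apoe, the lipid carrier of macrophages, read 585, 468 and 359 and fell by 0.52, while it rose in fibroblasts, 3.27, 2 and 9.43. The metalloelastase Mmp12 read 0.608, 0.491 and 2.19 and the chemokine Ccl6 0.608, 0.619 and 2.56. Cd74 read 206, 213 and 281 and rose by 0.45. The macrophage markers themselves did not pass, 0 of 7 by edgeR and by DESeq2 (2 at an unadjusted edgeR p under 0.05).

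T and NK cell genes fell in the myeloid sums: Nkg7, Cd3d, Cd3g and Ncr1 of 6 markers tested, and Trbc1 outside that list. Over all genes tested in these sums 0.796% fell. The 9 listed markers summed to 4.43, 2.65 and 0.168. Nkg7, of cytotoxic granules, had 26 and 32 UMIs in the fresh libraries and 0 in the stored, at least 16.6-fold lower over the group, and Trbc1, a T cell receptor chain, 41, 9 and 0, at least 14.3-fold lower. Up to 46% of the Nkg7 UMIs of a library lay in 1 cell. Of the genes of G2 and M phase 2 of 16 rose in myeloid cells, beside 1.88% of all genes tested. Ube2c read 0.304, 0.235 and 1.04 and Nusap1 0.101, 0.0854 and 0.457. In epithelial cells 0 of 18 passed by edgeR or DESeq2, and in fibroblasts 0 of 18, with 3 and 3 at an unadjusted edgeR p under 0.05. Among 107 stored and 113 fresh cells the myeloid counts rest on few UMIs.

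A change counts as private only if the storage change itself differs between compartments. In a joint fit of the 9 sums, over 5799 genes tested in all 3 compartments, it differed for 55 genes between epithelial and fibroblast cells (0.948%), 22 with the more positive change in fibroblasts (0.379%) and 33 with the more positive change in epithelial cells. This split is by the signed difference: 18 of those 33 genes fell in fibroblasts and did not pass in epithelial cells. It differed for 1 gene between epithelial and myeloid cells (0.0172%) and for 2 between fibroblast and myeloid cells (0.0345%). Most genes called in 1 compartment alone had no detectable difference from the others at this size of study. Of 245 genes that rose in fibroblasts alone 161 had positive changes in both other compartments, and their medians there were 0.29 and 0.42 beside 0.87 in fibroblasts. Of 300 that fell in fibroblasts alone 193 were negative in both others. Of 25 epithelial increases 19, and of 26 myeloid increases 11, were positive in both others.

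The genes with the more positive change in fibroblasts were led by AW112010, a transcript of immune cells, Frmd4b, Ifi27l2a, Ltf and Gstm1. AW112010 read 0.198, 0.136 and 0.631 in fibroblasts, 0.136, 0.137 and 0.0915 in epithelial cells and 3.48, 2.67 and 1.37 in myeloid cells, a difference of 2.54 ± 0.25 (adjusted p = 0.00666) between fibroblast and epithelial changes and of -3.10 ± 0.29 (0.0104) for myeloid minus fibroblast. It rose in fibroblasts and fell in myeloid cells. Ltf, Lalba and Csn2, milk genes, and the keratin Krt8 of the epithelial rule are in this group too. Frmd4b, a scaffold protein, read 0.0601, 0.0658 and 0.253 in fibroblasts and 0.0578, 0.0819 and 0.0532 in epithelial cells.

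Several of the genes with the more positive change in epithelial cells were matrix and fibroblast genes, Fbln1, Dpt, Clec3b and Igfbp6, that rose in epithelial cells from near 0: Dpt, dermatopontin, read 0.00586, 0.00233 and 0.0695 there and 2.43, 3.47 and 9.55 in fibroblasts, and Clec3b, tetranectin, 0.00168, 0.00698 and 0.0731 and 1.84, 4.07 and 10.8. Without cells that passed 2 rules these 4 genes no longer reached the count filter in all compartments. The others included genes that fell in fibroblasts and did not pass in epithelial cells. Pla2g7, a phospholipase, read 0.572, 0.352 and 0.064 in fibroblasts and 0.0834, 0.0489 and 0.068 in epithelial cells, a difference of -2.83 ± 0.31 (adjusted p = 0.00733). Arhgdib read 1.18, 1.31 and 0.267 in fibroblasts and 4.43, 4.42 and 3.88 in myeloid cells and differed from both other compartments. Inside the fibroblast classes the differences passed for 7 of 52 genes (Efemp1 and Clec3b class) and 11 of 54 (Cilp and Thbs4 class). Ctla2a, a protease inhibitor, was the gene that differed between epithelial and myeloid cells, at 0.0993, 0.0869 and 0.165 and 1.32, 0.918 and 0.0914.

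**Figure D5:**
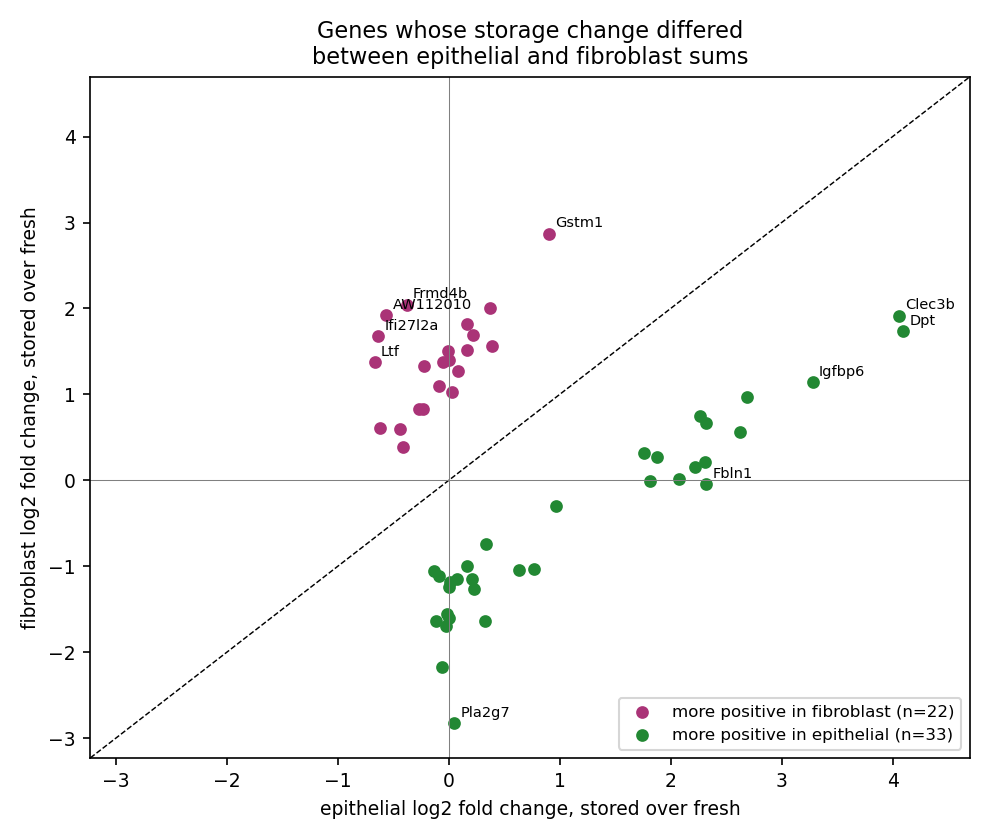
Log2 fold change of stored over fresh in epithelial (horizontal axis) and fibroblast sums (vertical axis) for the 55 genes whose change differed, with the line of equal change dashed. The 22 genes above the line include AW112010, at -0.56 in epithelial cells and 1.93 in fibroblasts, and the 33 below it include Dpt, at 4.10 and 1.74, and Pla2g7, at 0.05 and -2.83.

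Several pathways had few or no calls. Of 18 translation factors 0 passed by edgeR or DESeq2 in each compartment, with 3, 5 and 2 at an unadjusted edgeR p under 0.05 in epithelial, fibroblast and myeloid cells. Tubulins gave 0 of 10, 0 of 11 and 0 of 8 by both tools, with 1, 3 and 4 at an unadjusted p under 0.05, and the 8 tested in myeloid cells had a median of 0.73. Genes of the amino acid response gave 0 of 16, 0 of 11 and 0 of 5 by both tools, with 3, 0 and 0. The S phase gene Dut fell in fibroblasts, and among autophagy and lysosome genes Psap rose and Ctsz fell there. A p above the threshold with 1 stored library does not show that levels were the same.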

How the data were processed

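Single-cell UMI counts per gene and cell were deposited by the authors, unnormalized, and per the submitters' processing notes were made with Cell Ranger 3.0.1 on mm10. The deposited matrices did not list the same genes: 42562 names in each fresh library and 32845 in the stored one. The 31311 names found in all 3 after merging spellings were used, and they held every UMI. Any part that this difference between the matrices has in the changes cannot be told apart from storage and was not tested. Counts were summed per library and compartment. Genes were tested with edgeR 4.0.16 in R 4.3.3 (TMM, filterByExpr, quasi-likelihood test, Benjamini-Hochberg threshold 0.05), and the differences between compartments in 1 joint fit with library as a term. With 1 stored library each compartment fit had 1 residual degree of freedom. The prior degrees of freedom shared across genes were 6.54 in epithelial and 15.7 in fibroblast cells and without limit in myeloid cells, so myeloid p-values assume that all genes vary alike. Without cells passing 2 rules they were 6.12, 9.17 and 2.22, so the myeloid test then had far less shared information and a stricter p-value for the same change. The labels do not say that the fresh libraries came from separate animals, so p-values may measure technical spread only. The code was tested on simulated data.

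The compartments and gene lists were chosen with earlier results of these data known. Named genes were the 10 per direction and compartment whose stored value lay furthest from the nearer fresh library (log2 of UMIs per 10000 plus 0.05, at least 50 UMIs, no more than 50% of a library's UMIs in 1 cell), up to 10 shared genes per direction, the 5 largest differences per direction and pair of compartments, and up to 6 members of a list with calls or a shifted median. Other genes named were chosen after their values were seen. Alternatives were DESeq2 1.42.0, its size factors, no count filter, other cell limits, cells passing 2 rules left out and each fresh library left out; fits within fibroblast classes were added after seeing the data. Doublets were not called. The Rhapsody libraries of the series were not used here.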

Additional observations from a re-analysis of the deposited data

Results flagged for a closer look

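The change with storage differed between compartments, by the test of the difference itself in edgeR's joint fit, for these genes. Between epithelial and fibroblast cells, as fibroblast minus epithelial log2 fold change, the difference was 2.54 for AW112010, 2.45 for Frmd4b, 2.35 for Ifi27l2a, 2.12 for Ltf and 2.00 for Gstm1. In the other direction it was -2.83 for Pla2g7, -2.33 for Fbln1, -2.31 for Dpt, -2.12 for Clec3b and -2.09 for Igfbp6. Between epithelial and myeloid cells it was -4.39 for Ctla2a, as myeloid minus epithelial. Between fibroblast and myeloid cells, as myeloid minus fibroblast, it was 1.99 for Arhgdib and -3.10 for AW112010. These are the largest 5 per direction and pair among those that passed.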

How the results depend on the processing

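No paired analysis was possible because the stored group is 1 library, so the groups share fewer than 2 replicate numbers. Without a count filter 913 epithelial genes passed, and without cells passing 2 rules 112 did, in place of 210. In fibroblasts 246 passed by DESeq2, 110 within the Efemp1 and Clec3b class and 440 within the Cilp and Thbs4 class, in place of 1294. In myeloid cells 5 passed by DESeq2, 89 with its size factors and 0 without cells passing 2 rules (370 at an unadjusted p under 0.05), in place of 165. Differences between epithelial and fibroblast changes numbered 20 by DESeq2, 358 with no count filter, and 8 and 16 within the 2 fibroblast classes, in place of 55. Between epithelial and myeloid cells they numbered 3 by DESeq2, 22 with no count filter, 0 with cells of at least 1100 UMIs and 3 without cells passing 2 rules, in place of 1. Between fibroblast and myeloid cells they numbered 19, 57 with no count filter, 7 with cells of at most 20% mitochondrial UMIs, 11 without cells passing 2 rules, 6 without mural-gene cells and 1 within the Efemp1 and Clec3b class, in place of 2. Fewer cells and genes enter the class fits; otherwise the cause was not tested. No value of a named gene changed sign under these alternatives, but 924 of the 1017 fibroblast calls tested within the Efemp1 and Clec3b class and 143 of the 145 myeloid calls tested without cells passing 2 rules kept their sign, and the fibroblast cholesterol list median of -0.42 was 0.37 within that class. Of the shared increases 37 in all 3 compartments became 3 by DESeq2 and 0 without cells passing 2 rules, where 47 of 127 remained in 2. That 0 follows from the 0 myeloid calls of that fit. Of 117 values of named genes 77 stayed on their side of the threshold by DESeq2, and 72 of 113 without cells passing 2 rules. Leaving out fresh 1 or fresh 2 in turn moved 33 and 31 of 104 named values by more than the fresh spread: Il1rn in myeloid cells was 5.44 without fresh 1, AC160336.1 in myeloid cells -1.69 without fresh 2, and Scg3 in fibroblasts 4.34 and 6.50. The 220 myeloid cells set the depth limit, with 295824 to 656706 UMIs per library.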
